A study of Homo sapiens with 18 samples.

Results

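The DNA replication machinery was followed here as 52 genes of 13661 in the deposited table, chosen by name as subunits and regulators that act at replication origins and forks. They were the 4 subunits of DNA polymerase alpha-primase, the subunits of polymerases delta and epsilon, the MCM2-7 helicase with MCM8, the RPA single-strand binding complex, the PCNA clamp with its loader RFC, fork protection factors, factors that load or activate the helicase, lagging strand enzymes, the origin recognition complex, and the topoisomerases TOP1 and TOP2A. After a filter on low values, 51 of the 52 members were kept, as were 12720 of the 13661 genes. Polymerase delta subunit POLD4 was the member left out. It had 0, 12 and 6 reads in heavy polysomes, 21, 2 and 13 in light polysomes and 8, 3 and 4 in monosomes, too few to place it in the gradient.

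The samples were HEK293 cells (ATCC CRL-1573), an established human embryonic kidney line, exposed to DMSO vehicle for 12 h. Polysome profiling separates the mRNAs of a cell extract on a sucrose gradient by how many ribosomes they carry. The groups compared were heavy polysomes, light polysomes and monosomes, each with 3 replicates that the labels call batches 1 to 3, and all came from vehicle cells, for which the labels name no altered gene. The libraries of cells given 100 uM minocycline are not analysed here. A gradient below means the heavy, light and monosome libraries with the same replicate number. Nothing in the labels says whether replicates came from separate cultures, so p-values measure the spread between these samples, which may be technical.

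DNA replication begins at origins, where the origin recognition complex, CDC6 and CDT1 load the MCM2-7 helicase onto DNA. The kinase CDC7 with its activator DBF4 then helps CDC45 and GINS to join the helicase and switch it on, and polymerase alpha-primase makes the primers that polymerases epsilon and delta extend on the leading and the lagging strand. RFC loads the ring-shaped PCNA clamp that holds polymerases on DNA, RPA covers the single strands, and FEN1 and LIG1 finish the lagging strand. In growing cell lines many of these genes are known to be expressed most around S phase. In bulk libraries such as these, a change in the number of cells in S phase and a change in each cell's mRNA cannot be told apart.

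The starts of 3 reading frames are shown because they carry the extremes of the results. PCNA had the highest ribosome load of the members, and POLE4 and RPA3 had the lowest. All 3 frames are short: PCNA has 261 codons, POLE4 117 and RPA3 121, stop codon not counted. The first 240 nt of each are given 5′ to 3′ on the coding strand, from GENCODE release 29 on GRCh38. Capitals mark the start codon. The genes lie at chr20:5114953-5126626 on the minus strand, chr2:74958492-74970128 on the plus strand and chr7:7636518-7718607 on the minus strand. GC content of the coding sequence was 46.4% for PCNA, 59.0% for POLE4 and 44.0% for RPA3.
PCNA: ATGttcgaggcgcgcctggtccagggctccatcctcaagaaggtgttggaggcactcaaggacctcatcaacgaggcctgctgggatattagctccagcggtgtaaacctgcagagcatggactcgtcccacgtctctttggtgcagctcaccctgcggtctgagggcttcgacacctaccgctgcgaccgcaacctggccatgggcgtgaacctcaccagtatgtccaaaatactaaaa
POLE4: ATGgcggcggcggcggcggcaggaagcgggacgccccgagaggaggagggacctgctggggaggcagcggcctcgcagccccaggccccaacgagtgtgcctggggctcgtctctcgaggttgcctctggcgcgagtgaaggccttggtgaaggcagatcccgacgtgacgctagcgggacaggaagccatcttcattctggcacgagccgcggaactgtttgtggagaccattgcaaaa
RPA3: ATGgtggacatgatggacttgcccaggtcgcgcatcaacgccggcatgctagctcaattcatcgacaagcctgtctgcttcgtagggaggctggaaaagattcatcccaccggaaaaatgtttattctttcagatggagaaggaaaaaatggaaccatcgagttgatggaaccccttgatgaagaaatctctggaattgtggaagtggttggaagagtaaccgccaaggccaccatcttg

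Depth was 15103945 to 24441159 reads per heavy polysome library, 16809945 to 19558832 per light and 13447139 to 16145486 per monosome library. Kept members averaged 210.1 to 9053.3 reads per library. Light polysome library 2 stood apart: across genes its Pearson r with the other light libraries was 0.889 to 0.899, and with the 3 heavy libraries 0.928 to 0.953, while light libraries 1 and 3 had 0.985 with each other. What set this library apart was not tested. In the check of the cell line, 9 of 10 HEK293 marker genes were kept, and of 10 markers of other cells only COL1A1 was in the table. In the annotation, 23 of the 52 members overlap another gene, which adds uncertainty where counting did not use strand. For FEN1, POLA2, POLD1, POLD4, PRIM1 and PRIM2 an overlapping gene lies on the same strand, so counting by strand would not separate it.

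By their medians, replication mRNAs lay deeper in the gradient than all genes. Mean ribosome load (MRL) is a score, computed in each gradient from the deposited percentages with weights of 1 for monosomes, 2.5 for light and 6 for heavy polysomes, whose mean over gradients returned the deposited value. The median MRL of the 51 members was 3.80, 3.87 and 3.50 in gradients 1, 2 and 3, against 3.17, 3.17 and 3.16 for all genes kept. Averaged over gradients it was 3.72 ± 0.20 for the members and 3.17 ± 0.01 for all genes (SD, n = 3). The members' median percentage in heavy polysomes was 47.0%, 46.1% and 40.1%, and for all genes it was 32.8%, 32.3% and 32.3%. In light polysomes the averages were 26.3 ± 2.58% for the members and 30.5 ± 0.383% for all genes, and in monosomes 24.2 ± 6.20% and 31.0 ± 0.289%. The members' median was above that of all genes in each gradient for MRL and for heavy polysomes, and below it in each gradient for light polysomes and monosomes. Each fraction was scaled to the same typical gene, so the values compare genes with each other and not the RNA amounts of fractions.

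Against the median gene of the same gradient, MRL was higher for 22 of the 51 members, lower for 3, and did not pass the test for 26 (limma, adjusted p threshold 0.05). That is 43.1% and 5.88% of the members, against 22.0% called higher and 24.7% called lower among all genes. In either direction, 49.0% of the members and 46.7% of all genes were called. The 3 lower members were POLE4, RPA3 and POLD2. When the light and heavy percentages were summed instead of weighted, 16 members (31.4%) were called, against 31.6% of all genes. By direction, 15 members were higher and 1, CDT1, was lower, at limma adjusted p = 0.0463. POLE4, RPA3 and POLD2 missed the threshold at limma adjusted p = 0.0732, 0.0596 and 0.125. With these 3, 12 MRL calls were lost, the others being CDC45, CDC6, GINS4, MCM6, ORC4, POLD3, PRIM2, RFC4 and RFC5. CDT1, DBF4 and GINS1 passed where they had not by MRL. MRL lay above the median gene in all 3 gradients for 28 members (54.9%), against 33.6% of all genes, and below it in all 3 for 6 (11.8%), against 34.3% of all genes. Heavy polysomes over monosomes, fitted on normalized counts from the same libraries, gave 23 members higher and 3 lower, with 25 that did not pass, against 24.7% higher and 24.4% lower among all genes. Both measures called the same 21 members higher and the same 3 lower. Without replicate 1 the calls for MRL fell to 12 members (23.5%), against 26.9% of all genes. By direction these were 10 members higher and 2 lower, against 1258 and 2164 of 12720 genes. For heavy over monosomes the calls fell to 11 (21.6%), against 24.7% of all genes, and without replicate 3 to 17 (33.3%), against 31.0%. Without replicate 1 these were 9 higher and 2 lower, against 1271 and 1866 of 12720 genes. Without replicate 3 they were 15 higher and 2 lower, against 1752 and 2196. The 13 MRL calls lost without replicate 1 included POLD2, POLD3, GMNN and ORC5.

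**Figure D1:**
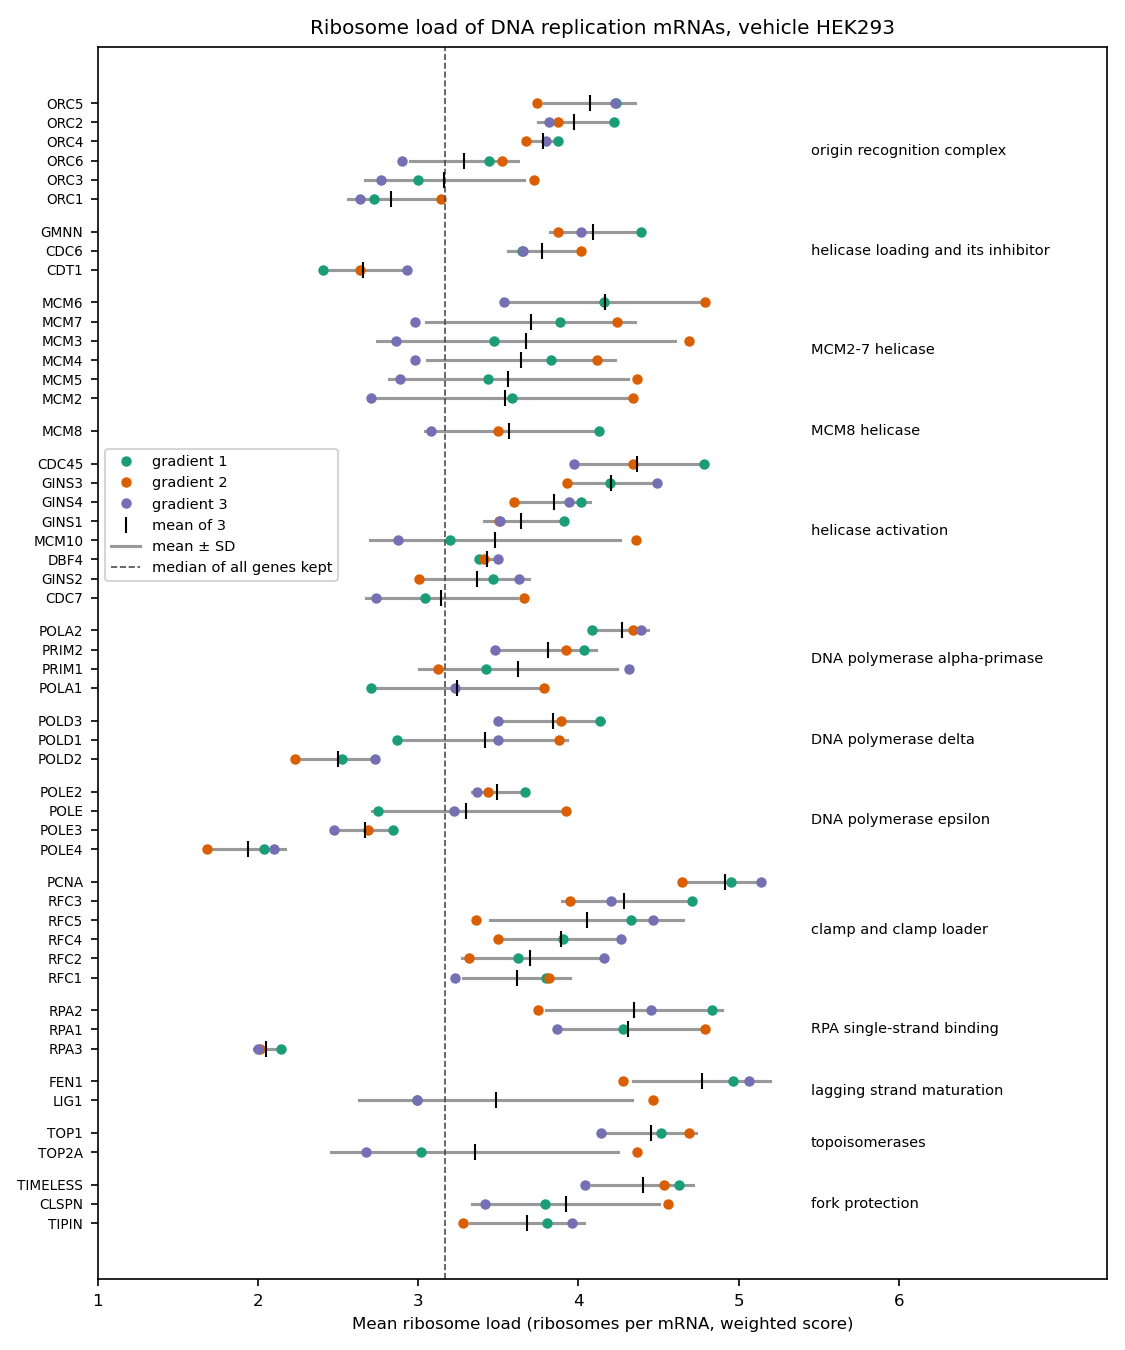
MRL of each kept member (horizontal axis, score) by role (vertical axis), with points for the 3 gradients, a tick at the mean with a line of 1 SD to each side, and a dashed line at the median of all genes kept. PCNA, FEN1, TOP1 and TIMELESS lie farthest right, and POLE4, RPA3, POLD2 and CDT1 farthest left.

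The normalized counts of heavy polysomes and monosomes did not overlap for 30 members. Heavy polysomes were higher in 26 of the 51 kept members, against 31.4% of all genes kept. Monosomes were higher in 4 of the 51 (POLE3, POLE4, RPA3 and POLD2), against 29.0% of all genes kept. For the other 21 members the 3 heavy and 3 monosome values overlapped. The median log2 difference of heavy polysomes over monosomes was 0.83 for the members and 0.13 for all genes, that of light polysomes over monosomes 0.02 and 0.04, and that of heavy over light polysomes 0.81 and 0.05.

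**Figure D2:**
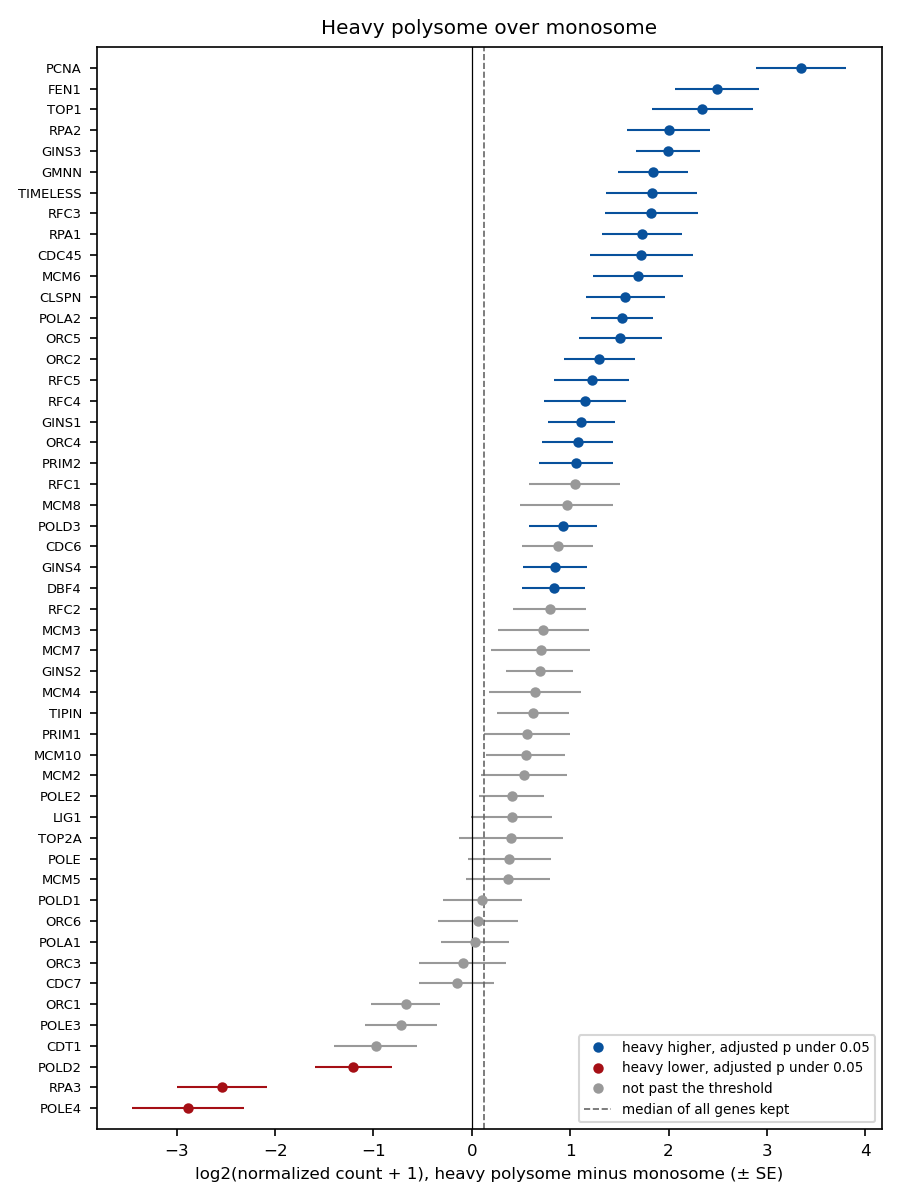
Log2 difference of heavy polysomes over monosomes for each kept member, with its standard error from limma, ordered by size and coloured by the call at an adjusted p of 0.05, with a dashed line at the median of all genes kept. PCNA is at 3.35 and POLE4 at -2.89, and most members lie above 0.

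The clamp and its loader were among the most heavily loaded. PCNA, the sliding clamp, had normalized counts of 16390.0, 12547 and 12995 in heavy polysomes, 2928, 6019 and 2806 in light polysomes and 2509.8, 1099 and 917 in monosomes in replicates 1, 2 and 3. Every heavy polysome value was above every light polysome value, and every light value was above every monosome value. Heavy polysomes exceeded monosomes by a log2 difference of 3.35 ± 0.46 (SE), limma adjusted p = 1.27e-04, and MRL was 4.91 ± 0.25 (SD, n = 3), the highest of the members. PCNA also rose in light polysomes over monosomes, by 1.43 ± 0.46 (SE), limma adjusted p = 0.0433, a call that was lost when replicate 1, 2 or 3 was left out, at limma adjusted p = 0.103, 0.0766 and 0.242. Pseudogenes named after PCNA are annotated, and how reads were split between them in counting is stated in no label. The same holds for POLD2, DBF4, RFC3, RFC5, RPA2 and FEN1.

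RFC is a ring of RFC1, the large subunit, and RFC2 to RFC5, the small ones, and it opens PCNA and places it on DNA. RFC3, RFC4 and RFC5 were called higher by both measures, with MRL of 4.29 ± 0.39, 3.89 ± 0.39 and 4.05 ± 0.60 (SD, n = 3). RFC2 had 3.70 ± 0.43 and RFC1 3.61 ± 0.33, the lowest of the 6 genes of this role, and neither passed. Without replicate 2 RFC2 passed as higher, at limma adjusted p = 0.00884 for MRL and 0.00203 for heavy over monosomes. It also passed for MRL when centred on the mean gene, at limma adjusted p = 0.0351. RFC1 percentages were 46.0%, 42.5% and 34.4% in heavy polysomes, 33.2%, 46.0% and 33.7% in light polysomes and 20.8%, 11.5% and 31.8% in monosomes. Its normalized counts in heavy polysomes were all above those in monosomes, with a log2 difference of 1.05 ± 0.46 (SE), limma adjusted p = 0.0735, and with the replicate block adjusted p was 0.0443 in limma, or 0.0197 without light library 2. For RFC2 to RFC5, MRL was lowest in gradient 2 for all 4, with medians of 4.12, 3.43 and 4.24 in gradients 1, 2 and 3, and this also occurred in 47.6% of all genes. The calls of RFC3, RFC4 and RFC5 by both measures were lost without replicate 1, and those of RFC4 and RFC5 without replicate 3. RFC4 and RFC5 also lost their MRL calls when the light and heavy percentages were summed. Heavy and monosome counts of RFC4 overlapped, and its call for heavy over monosomes was lost in edgeR, at edgeR adjusted p = 0.0675.

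The members for lagging strand maturation were FEN1 and LIG1. FEN1, the nuclease that trims Okazaki fragment flaps, lies at chr11:61792637-61797244 and had normalized counts of 4938, 3272 and 3632 in heavy polysomes, 723, 1672 and 556 in light polysomes and 841, 806 and 483 in monosomes. Heavy polysome values were above all light polysome and monosome values, and the percentages in heavy polysomes were 76.0%, 56.9% and 77.8%. The log2 difference of heavy polysomes over monosomes was 2.49 ± 0.42 (SE), limma adjusted p = 4.67e-04, and MRL was 4.77 ± 0.43 (SD, n = 3). LIG1, the ligase that seals the fragments, had 32.6%, 62.8% and 32.2% in heavy polysomes and 43.5%, 15.5% and 42.2% in monosomes, with gradient 2 apart from the others, and heavy and monosome counts overlapped. Its MRL of 3.48 ± 0.85 (SD, n = 3) did not pass the test. LIG1 had an MRL of 2.99, 4.47 and 3.00 and FEN1 of 4.96, 4.28 and 5.07 in gradients 1, 2 and 3, so LIG1 was the higher in gradient 2, and the difference between the genes was not tested. LIG1 also held the lowest count of any kept member in a library, 74 reads, whose counting error alone is 11.6%.

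The RPA complex, a trimer that coats single-stranded DNA, was split between its subunits, which differ in coding length. RPA1 has 1848 nt, RPA2 810 nt and RPA3 363 nt, and 59.2% of all genes up to 600 nt were called lower by MRL. RPA2, the middle subunit, had percentages of 71.6%, 43.0% and 62.5% in heavy polysomes, 17.0%, 40.1% and 21.9% in light polysomes and 11.4%, 16.9% and 15.6% in monosomes, and MRL of 4.84, 3.75 and 4.45 in gradients 1, 2 and 3. RPA3, the smallest subunit, had normalized counts of 1936, 737 and 1661 in heavy polysomes, 6519, 4584 and 8005 in light polysomes and 8569, 5139 and 10586 in monosomes. Heavy polysomes were lowest in every replicate for RPA3 and highest in every replicate for RPA2, with no overlap with monosomes for either. The log2 difference of heavy polysomes over monosomes was 2.00 ± 0.42 (SE), limma adjusted p = 0.00175 for RPA2 and -2.54 ± 0.46 (SE), limma adjusted p = 6.74e-04 for RPA3. Without replicate 1 RPA2 missed the threshold, at limma adjusted p = 0.0702. RPA1, the large DNA-binding subunit, was also called higher, with MRL of 4.31 ± 0.46, against 4.35 ± 0.55 for RPA2 and 2.05 ± 0.08 for RPA3 (SD, n = 3). RPA3 lies across UMAD1, a gene annotated on the other strand, and no label says whether counting used strand.

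**Figure D3:**
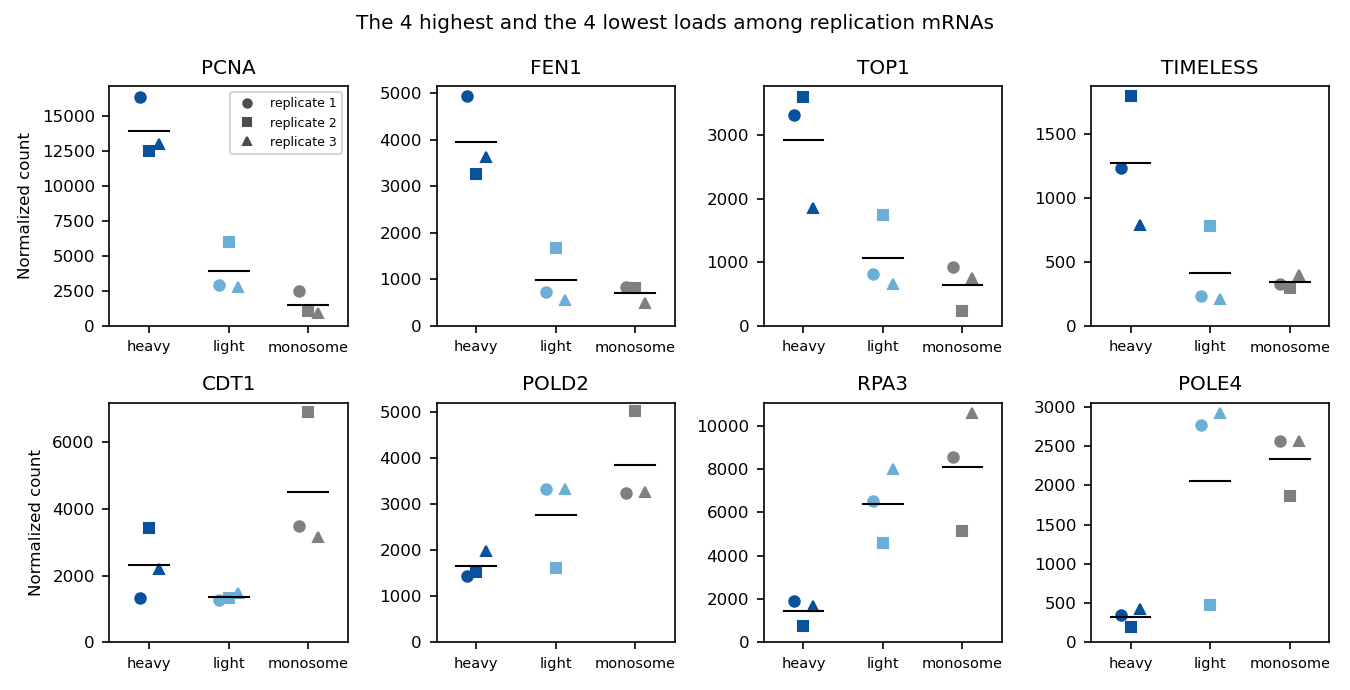
Normalized counts (vertical axis) of the members with the 4 highest and the 4 lowest mean MRL in heavy polysomes, light polysomes and monosomes (axis from 0), with 1 point per replicate and a bar at the mean. Heavy polysomes hold the highest values of PCNA, FEN1, TOP1 and TIMELESS and the lowest of POLE4 and RPA3.

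Polymerase epsilon, which copies the leading strand, had a median MRL of 2.90 ± 0.14 over its 4 subunits. The 3 kept subunits of polymerase delta had 3.42 ± 0.51 and polymerase alpha-primase 3.83 ± 0.09 (SD, n = 3). These sets differ in coding length. POLE3 (441 nt) and POLE4 (351 nt) are short, and POLD4, the short subunit of polymerase delta (321 nt), was not kept. All genes up to 600 nt had a median MRL of 2.43. POLE4, a small histone-fold subunit, had normalized counts of 352, 203 and 423 in heavy polysomes, 2765, 478 and 2922 in light polysomes and 2562, 1869 and 2564 in monosomes. Its monosome and light polysome values were all above its heavy polysome values. The log2 difference of heavy polysomes over monosomes was -2.89 ± 0.57 (SE), limma adjusted p = 0.00119, that of heavy over light polysomes was -2.33 ± 0.57 (SE), limma adjusted p = 0.0101, and MRL was 1.94 ± 0.23 (SD, n = 3), the lowest of the members. POLE3, its histone-fold partner, sat mostly in light polysomes, at 60.7%, 52.8% and 52.5%, and was lower in heavy than in light polysomes, with a log2 difference of -1.73 ± 0.37 (SE), limma adjusted p = 0.00738. POLE2, the second largest subunit, had percentages of 47.0%, 38.5% and 39.9% in heavy polysomes, 21.0%, 34.0% and 24.9% in light polysomes and 32.0%, 27.4% and 35.3% in monosomes and the highest MRL of the role, 3.49 ± 0.16 (SD, n = 3). Heavy and monosome counts of POLE2 did not overlap, but the log2 difference of 0.41 ± 0.33 (SE), limma adjusted p = 0.324 did not pass. The catalytic subunit POLE had MRL of 2.75, 3.92 and 3.22 in gradients 1, 2 and 3, and its counts overlapped. The heavy over light calls of POLE3 and POLE4 were lost without replicate 1 and without replicate 3.

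Polymerase delta, which copies the lagging strand, also held members at both ends. POLD3, an accessory subunit, had percentages of 57.0%, 48.7% and 43.1% in heavy polysomes, 18.8%, 30.3% and 22.9% in light polysomes and 24.2%, 21.0% and 34.0% in monosomes, and heavy counts were above monosome counts without overlap. POLD2, the subunit that bridges the catalytic and the accessory parts, lies at chr7:44114681-44124358 and had normalized counts of 1443, 1534 and 1977 in heavy polysomes, 3338, 1610.0 and 3344 in light polysomes and 3243, 5037 and 3276 in monosomes. Its monosome counts were all above its heavy counts. The log2 difference of heavy polysomes over monosomes was 0.93 ± 0.35 (SE), limma adjusted p = 0.0379 for POLD3 and -1.20 ± 0.39 (SE), limma adjusted p = 0.0208 for POLD2, with MRL of 3.84 ± 0.32 and 2.5 ± 0.25 (SD, n = 3). Without replicate 1 these became limma adjusted p = 0.321 for POLD3 and 0.185 for POLD2, and without replicate 3 0.0782 and 0.0675. POLD1, the catalytic subunit, had MRL of 3.42 ± 0.51 (SD, n = 3) and did not pass for heavy over monosomes, but was lower in light polysomes than in monosomes, with a log2 difference of -1.22 ± 0.40 (SE), limma adjusted p = 0.0483. That call was lost without replicate 1, without replicate 3 and, at limma adjusted p = 0.0503, with no filter on low values. POLD1 was also higher in heavy than in light polysomes, by 1.32 ± 0.40 (SE), limma adjusted p = 0.0241. This second call was lost without replicate 1 and without replicate 3 as well.

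Polymerase alpha-primase makes the RNA-DNA primers. POLA2, its regulatory subunit, had percentages of 55.5%, 60.6% and 62.3% in heavy polysomes, 20.4%, 20.6% and 18.4% in light polysomes and 24.1%, 18.8% and 19.3% in monosomes, close together over the replicates. Heavy polysomes exceeded monosomes by a log2 difference of 1.53 ± 0.32 (SE), limma adjusted p = 0.00173, and MRL was 4.27 ± 0.17 (SD, n = 3). POLA1, the catalytic polymerase subunit, had percentages of 25.8%, 49.0% and 34.0% in heavy polysomes, 27.6%, 22.6% and 35.7% in light polysomes and 46.6%, 28.5% and 30.4% in monosomes, with heavy and monosome counts overlapping. Its MRL of 3.24 ± 0.54 (SD, n = 3) and its log2 difference of 0.03 ± 0.35 (SE), limma adjusted p = 0.946 did not pass. Of the primase subunits, PRIM2, the large one, was called higher at MRL 3.81 ± 0.30, and PRIM1, the catalytic one, was not, at 3.62 ± 0.62 (SD, n = 3). PRIM2 lost its calls without replicate 1 and without replicate 3. PRIM1 overlaps NACA on the same strand in the annotation. With the replicate block PRIM1 passed for heavy over light polysomes, at limma adjusted p = 0.0427.

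The 6 subunits of the MCM2-7 helicase, the ring that unwinds DNA at the fork, had the same order of MRL over the gradients. MRL was highest in gradient 2 and lowest in gradient 3 for all 6, with medians of 3.71, 4.35 and 2.93 in gradients 1, 2 and 3. Their median percentage was 47.8%, 60.9% and 33.1% in heavy polysomes and 30.6%, 15.8% and 47.9% in monosomes. Among all genes, MRL was highest in gradient 2 for 34.6% and lowest in gradient 3 for 30.7%. Among the members these shares were 41.2% and 49.0%. The order was not particular to this helicase, as RFC1, RPA1, CLSPN, MCM10, CDC7, ORC1, ORC3, ORC6, TOP1 and TOP2A had it too. MCM6 had percentages of 57.1%, 68.5% and 43.0% in heavy polysomes, 20.3%, 24.3% and 25.9% in light polysomes and 22.6%, 7.18% and 31.1% in monosomes, with heavy counts above monosome counts in every replicate and no overlap. It was called higher, with a log2 difference of 1.69 ± 0.46 (SE), limma adjusted p = 0.00799 and MRL of 4.16 ± 0.63 (SD, n = 3). MCM2 had percentages of 44.4%, 59.1% and 26.7% in heavy polysomes, 24.5%, 25.6% and 24.6% in light polysomes and 31.2%, 15.3% and 48.7% in monosomes, and its heavy and monosome counts overlapped. Its log2 difference was 0.53 ± 0.44 (SE), limma adjusted p = 0.326, and its MRL of 3.54 ± 0.82 (SD, n = 3) was the lowest of the 6. Without replicate 2 the MCM2 difference became -0.18, limma adjusted p = 0.626. MCM3, MCM4, MCM5 and MCM7 had MRL of 3.67, 3.64, 3.56 and 3.70, and none passed for MRL or heavy over monosomes. Without replicate 3, MCM3 and MCM7 passed for MRL, at limma adjusted p = 0.0345 and 0.0288. MCM5 was called higher for heavy over light polysomes, by 1.32 ± 0.43 (SE), limma adjusted p = 0.0316, a call lost without replicate 1 or 3. Without light library 2, MCM4, MCM6 and MCM7 passed that comparison too, at limma adjusted p = 0.00736, 0.0113 and 0.00403. MCM8, a related helicase that acts in repair and meiosis, had 4.13, 3.50 and 3.08 and did not follow the order of the 6.

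**Figure D4:**
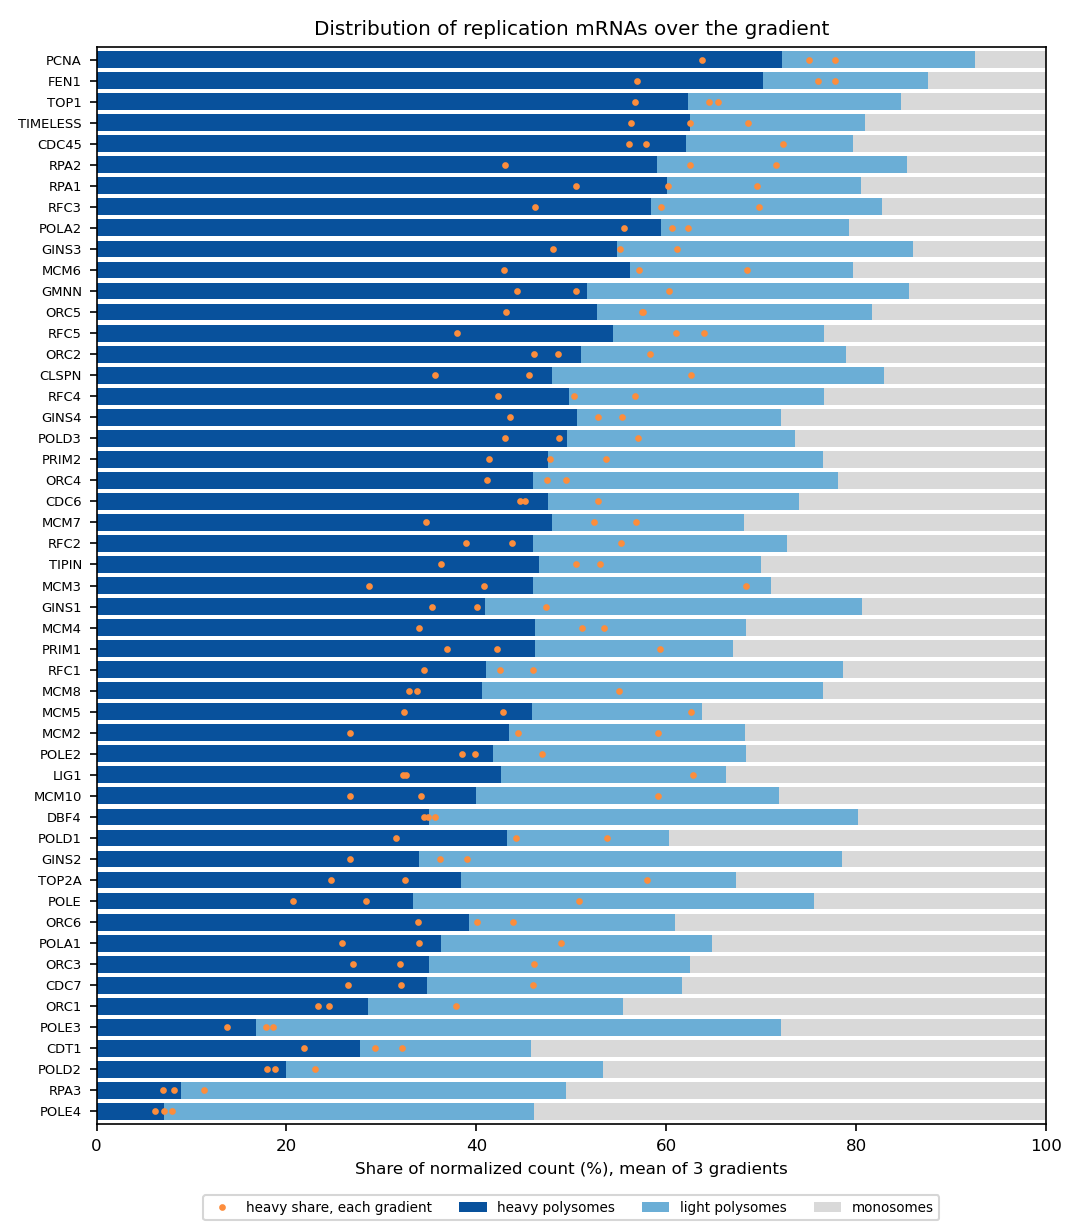
Share of each kept member's normalized count (horizontal axis, percent) in heavy polysomes, light polysomes and monosomes as the mean of 3 gradients, ordered by MRL, with points for the heavy share of each gradient. MCM3 has heavy shares of 40.8%, 68.4% and 28.7% in gradients 1, 2 and 3, the points of POLE4 and RPA3 lie near the left edge, and POLE3 has most of its count in light polysomes.

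Of the helicase activation genes, CDC45, the factor that joins MCM2-7 and GINS in the active helicase, had the highest mean MRL, and GINS3 had the largest heavy over monosome difference, 1.99 ± 0.33 (SE), limma adjusted p = 3.67e-04. CDC45 percentages were 72.3%, 57.8% and 56.1% in heavy polysomes, 11.3%, 29.9% and 11.4% in light polysomes and 16.3%, 12.3% and 32.5% in monosomes, with heavy counts above monosome counts without overlap. Its log2 difference of heavy polysomes over monosomes was 1.72 ± 0.52 (SE), limma adjusted p = 0.0142, and MRL was 4.37 ± 0.41 (SD, n = 3). Without replicate 1 the call was lost, at limma adjusted p = 0.123. GINS1 to GINS4 form the GINS complex, and their median MRL was 3.96, 3.55 and 3.79. GINS1, GINS3 and GINS4 were called higher for heavy over monosomes, and GINS2 was not, but passed without replicate 2, at limma adjusted p = 0.00163. DBF4 was called higher for heavy over monosomes and CDC7, the kinase it activates, was not. The calls of GINS1, GINS4 and DBF4 were lost without replicate 1 and without replicate 3. CDC7 had 32.0%, 46.0% and 26.5% in heavy polysomes, 29.3%, 23.9% and 27.3% in light polysomes and 38.7%, 30.1% and 46.2% in monosomes, the lowest MRL of this role at 3.14 ± 0.47 (SD, n = 3), and a log2 difference of -0.15 ± 0.38 (SE), limma adjusted p = 0.759. MCM10, a helicase activation factor, had MRL of 3.20, 4.36 and 2.88 and did not pass.

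Of the factors that load the helicase, CDT1 and its inhibitor GMNN (geminin) lay apart. GMNN had percentages of 60.3%, 44.3% and 50.5% in heavy polysomes, 25.1%, 43.8% and 32.6% in light polysomes and 14.6%, 11.9% and 16.9% in monosomes, with heavy counts above monosome counts without overlap. CDT1, at chr16:88803213-88809258, had normalized counts of 1327, 3415 and 2199 in heavy polysomes, 1262, 1331 and 1486 in light polysomes and 3484, 6897 and 3162 in monosomes, so heavy and monosome values overlapped while every light value was below every monosome value. The log2 difference of heavy polysomes over monosomes was 1.84 ± 0.36 (SE), limma adjusted p = 0.00112 for GMNN and -0.98 ± 0.42 (SE), limma adjusted p = 0.0691 for CDT1. In light polysomes over monosomes the values were 1.20 ± 0.36 (SE), limma adjusted p = 0.0311 for GMNN and -1.64 ± 0.42 (SE), limma adjusted p = 0.0155 for CDT1. MRL was 4.09 ± 0.27 for GMNN and 2.66 ± 0.26 for CDT1 (SD, n = 3). CDT1 passed for heavy over monosomes with the replicate block, at limma adjusted p = 0.0481, without replicate 2, at 0.00902, and without light library 2, at 0.0453. GMNN lost the heavy over monosome call without replicate 1, at limma adjusted p = 0.0519. The light over monosome calls of both were lost without replicate 1 and without replicate 3. CDC6, the loading ATPase, had MRL of 3.77 ± 0.21 (SD, n = 3) and was called higher by MRL, a call lost without replicate 1 and without replicate 3. For heavy over monosomes its log2 difference was 0.87 ± 0.36 (SE), limma adjusted p = 0.0558, and it passed with the replicate block, at 0.0337, and without light library 2, at 0.0249.

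In the origin recognition complex, which marks origins, ORC2, ORC4 and ORC5 were called higher and ORC1, ORC3 and ORC6 were not. ORC5 had percentages of 57.5%, 43.1% and 57.5% in heavy polysomes, 24.0%, 39.2% and 23.8% in light polysomes and 18.5%, 17.7% and 18.7% in monosomes, with heavy counts above monosome counts without overlap. Its log2 difference was 1.51 ± 0.43 (SE), limma adjusted p = 0.00981, and MRL was 4.07 ± 0.28 (SD, n = 3). ORC1, the ATPase subunit, had percentages of 24.5%, 37.9% and 23.4% in heavy polysomes, 33.2%, 16.3% and 31.1% in light polysomes and 42.3%, 45.8% and 45.6% in monosomes, and its heavy and monosome counts overlapped. Its log2 difference was -0.67 ± 0.35 (SE), limma adjusted p = 0.123, and MRL was 2.83 ± 0.27 (SD, n = 3), the lowest of the complex. Without replicate 2 ORC1 passed as lower, at -0.87 and limma adjusted p = 0.00721. ORC5 lost its call without replicate 1, at limma adjusted p = 0.0842, and without replicate 3, at 0.0547. ORC2 lost its call without replicate 1, and ORC4 without replicate 1 and without replicate 3.

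Fork protection factors and topoisomerases gave the remaining extremes. TIMELESS, which with TIPIN holds the helicase and polymerases together, lies at chr12:56416373-56449403 and had normalized counts of 1235, 1792 and 785 in heavy polysomes, 237, 781 and 211 in light polysomes and 328, 294 and 399 in monosomes. TOP1, which relieves supercoils ahead of the fork, lies at chr20:41028818-41124487 and had normalized counts of 3317, 3604 and 1857 in heavy polysomes, 820.3, 1741 and 661 in light polysomes and 927, 242 and 754 in monosomes. For both, each heavy value was above each monosome value. The log2 difference of heavy polysomes over monosomes was 1.83 ± 0.46 (SE), limma adjusted p = 0.00538 for TIMELESS and 2.34 ± 0.51 (SE), limma adjusted p = 0.00218 for TOP1, with MRL of 4.40 ± 0.32 and 4.45 ± 0.28 (SD, n = 3). TIPIN had percentages of 50.5%, 36.3% and 53.1% in heavy polysomes, 18.9%, 31.1% and 20.3% in light polysomes and 30.7%, 32.6% and 26.7% in monosomes, with no overlap of heavy and monosome counts. Its log2 difference of 0.62 ± 0.36 (SE), limma adjusted p = 0.168 did not pass, and without replicate 2 it did, at limma adjusted p = 0.00727. CLSPN, which links the fork to checkpoint kinases, was called higher, with MRL of 3.92 ± 0.58 (SD, n = 3), and its MRL call was lost without replicate 1, at limma adjusted p = 0.109, and without replicate 2, at 0.0697, where its log2 MRL over the median gene was 0.19, against 0.30 with all 3. TOP2A, which untangles daughter duplexes, had MRL of 3.02, 4.37 and 2.67 in gradients 1, 2 and 3 and did not pass.

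Light polysomes over monosomes called 8 members (15.7%), near the 18.7% of all genes. PCNA, GINS1, GINS2, GINS3, DBF4 and GMNN were higher in light polysomes, and CDT1 and POLD1 were lower. That is 6 and 2 of 51 members, or 11.8% and 3.92%, against 8.47% and 10.2% of all genes. With the replicate block GINS1 was lost, at limma adjusted p = 0.0542. Heavy over light polysomes called 15 members higher and 3 lower, or 29.4% and 5.88%, against 14.7% and 17.5% of all genes. In both contrasts no member passed without replicate 1 or without replicate 3. Of all genes, light over monosomes then called 4.42% and 7.36%, and heavy over light polysomes called 0 and 1 of 12720. At an unadjusted p under 0.05, limma then gave 7 and 9 members for light over monosomes, against 2588 and 2755 of 12720 genes. For heavy over light polysomes it gave 11 and 16 members, against 2490 and 3100 genes. Without replicate 2, light over monosomes called 16 members (31.4%), against 35.4% of all genes, and heavy over light polysomes called 35 (68.6%), against 60.1%. Without light library 2, the library that stood apart, light over monosomes called 10 members (19.6%), against 21.7% of all genes. Heavy over light polysomes then called 32 (62.7%), 28 higher and 4 lower, against 50.5% of all genes.

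MRL was also set against coding length in each gradient. Across the 51 members, Spearman's rho of coding length with MRL was -0.192, 0.547 and -0.304 in gradients 1, 2 and 3, and across 12715 genes it was 0.16, 0.478 and 0.0904. Genes within a gradient share libraries and are not independent, so these values are descriptions. Of the 15 members with coding sequences over 2400 nt, MRL was highest in gradient 2 for 13, or 86.7%, against 68.0% of all genes of that length. Of the 12 members with 601 to 1200 nt, it was lowest in gradient 2 for 11, or 91.7%, against 69.6% of all genes of that length. These lengths hold the MCM2-7 subunits other than MCM5 and MCM7 in the first case and RFC2 to RFC5 in the second. Between gradients, Spearman's rho of the members' MRL was 0.449 for 1 with 2, 0.78 for 1 with 3 and 0.184 for 2 with 3, against 0.715, 0.865 and 0.63 for all genes.

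**Figure D5:**
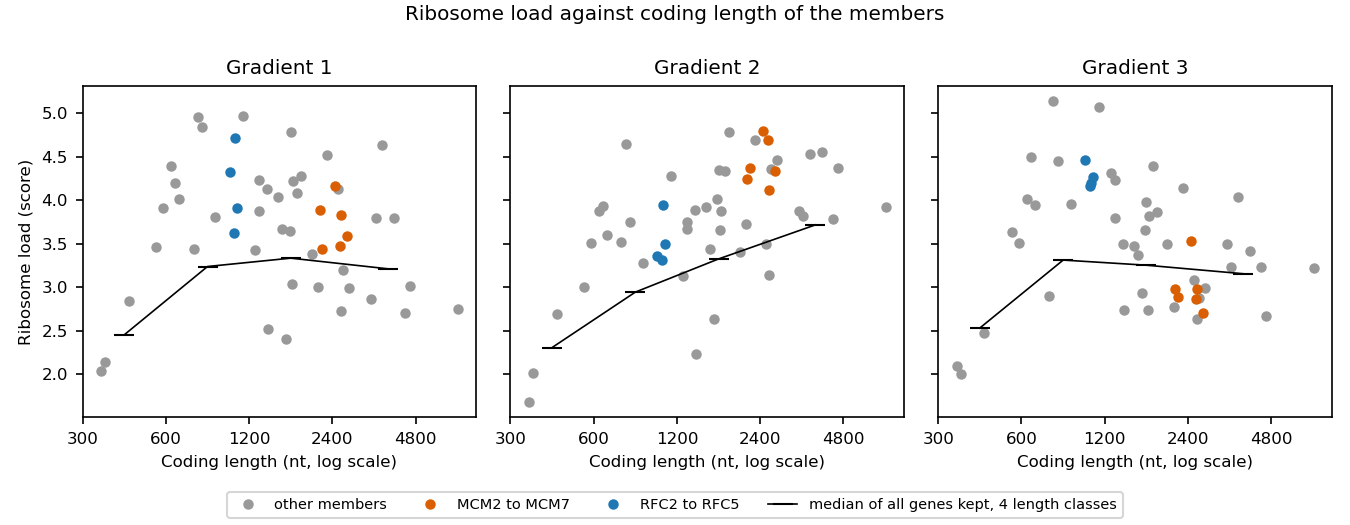
MRL (vertical axis, score) against coding length (horizontal log axis, nt) for the 51 kept members in each of the 3 gradients, with MCM2 to MCM7 and RFC2 to RFC5 coloured and a line for the median of all genes in 4 length classes. Members over 2400 nt have a median MRL of 3.47, 4.34 and 3.08 in gradients 1, 2 and 3, and rho is -0.192, 0.547 and -0.304.

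Within length classes, members of 601 to 1200 nt had a median MRL of 4.06 ± 0.33, against 3.17 ± 0.19 for all genes of that length (SD, n = 3). MRL was called higher for 9 of these 12 (75.0%), against 23.5% of all genes of that length. Of these calls, those of GINS4, GMNN, RFC3, RFC4 and RFC5 were lost without replicate 1. The 5 members up to 600 nt were POLE4, RPA3, POLE3, GINS2 and GINS1, with a median of 2.67 ± 0.18, against 2.43 ± 0.11 for all genes of that length, and 2 of the 5 were called lower (40.0%), against 59.2%. Members of 1201 to 2400 nt had 3.75 ± 0.22, against 3.30 ± 0.04, and 10 of the 19 were called higher (52.6%), against 28.6%. Members over 2400 nt had 3.63 ± 0.65, against 3.36 ± 0.31, and 3 of the 15 were called higher (20.0%), close to the 18.9% of all genes of that length.

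The authors' deposited table also assigns each gene to a fraction by a strict class. There, 16 of the 52 members were classed as heavy, or 30.8%, against 12.1% of all genes. POLE3 was classed as light, RPA3 and CDT1 as monosome, and 33 members as mixed. Those shares were 1.92%, 3.85% and 63.5% of the members, against 3.67%, 11.3% and 72.9% of all genes in the authors' deposited table. Among other genes of the process, 38 of an accessory list of 39 (fork remodelling, histone deposition, origin firing) were in the table and kept. MRL was higher than the median gene for 12 (31.6%), lower for 6 (15.8%) and did not pass for 20, against 22.0% higher and 24.7% lower among all genes. Heavy over monosomes gave 14 higher (36.8%), 7 lower (18.4%) and 17 that did not pass, against 24.7% and 24.4% of all genes. Their median MRL was 3.40 ± 0.21 (SD, n = 3). ASF1B, a histone chaperone, had the highest MRL of that list at 4.74 ± 0.56 and TOP2B, a topoisomerase, the next at 4.57 ± 0.09. TONSL, a fork repair factor, had the lowest at 2.25 ± 0.32, and RECQL4, a helicase, the next at 2.27 ± 0.54 (SD, n = 3 each).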

How the data were processed

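Normalized counts are a signal deposited by the authors: a gene count divided by a size factor per library. Per the submitters' processing notes, counting used featureCounts on GRCh38; aligner, options and strand setting: not given in the sources used here. Deposited percent values are a gene's share of its summed normalized count over the 3 fractions of a gradient, and the authors' deposited MRL is a score; they were recomputed to within 5.5e-08 and 4.61e-09. Whole reads were recovered from the deposited values in 100% of cases at a tolerance of 0.01. Genes with a mean of at least 10 reads over the 9 libraries and reads in each gradient were kept. limma 3.58.1 (R 4.3.3) was fitted to log2(normalized count + 1) computed from the deposited values, with fraction as the only term, and to log2 MRL minus the gradient's median gene, two-sided, with Benjamini-Hochberg adjustment over 12720 genes at 0.05. On this scale the change of low genes is understated. The design had named edgeR for raw counts; as the values were normalized, limma was used, and edgeR 4.0.16 and DESeq2 1.42.0 on recovered reads served as alternatives.

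Other alternatives were each replicate left out, no filter, a mean of at least 50 reads, pseudocounts of 0.5 and 5, other weights or centring, the polysome share and a replicate block. Labels give the batch as the replicate number, so the numbers pair the samples; 9 same-numbered pairs of libraries had correlations of deviations of -0.539 to 0.391, median 0.0967, against -0.447 to 0.394, median -0.0205, for 18 other pairs. Lists, members and tests were chosen with earlier results of these data known. Per-library values are given for the members with the 4 highest and 4 lowest mean MRL and for the highest and lowest of each role with at least 3 kept members. Coding lengths came from GENCODE release 29. The limma script was tested on simulated data. ERCC spike-ins, added per the labels, and 9 minocycline libraries were not used here.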

Additional observations from a re-analysis of the deposited data

How the results depend on the processing

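Member counts kept within 1.5 times of the reported ones under no filter, a mean of at least 50 reads, pseudocounts of 0.5 and 5, centring on the mean gene, edgeR, DESeq2 and the replicate block, and no result reversed its sign with a call. Leaving out each replicate gave 12 to 30 members called for MRL (25 with all), 11 to 33 for heavy over monosomes (26), 0 to 16 for light over monosomes (8) and 0 to 35 for heavy over light polysomes (18). Where limma gave 0, the count at an unadjusted p under 0.05 was 7 and 9 members for light over monosomes and 11 and 16 for heavy over light. Among all 12720 genes these counts were 2588 and 2755, and 2490 and 3100. On the recovered reads, edgeR called 26, 7 and 16 members (6257, 2414 and 4263 of all genes) for heavy over monosomes, light over monosomes and heavy over light. The polysome share in place of MRL gave 16 members (31.4%), 15 higher and 1 lower, against 4018 of all genes (31.6%) in either direction. Leaving out light polysome replicate 2 gave 32 for heavy over light. Weights of 1, 3 and 8 gave a median MRL of 4.78 for the members, by their construction. With the replicate block, members called were 29 for heavy over monosomes (56.9%, against 49.3% of all genes), 7 for light over monosomes (13.7%, against 19.1%) and 19 for heavy over light (37.3%, against 33.8%).

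Among all genes, calls were 3422 without replicate 1 against 5937 for MRL; 3137 without replicate 1 and 3948 without replicate 3 against 6246 for heavy over monosomes; 562, 4507 and 936 without replicates 1, 2 and 3 against 2380 for light over monosomes; and 0, 7651 and 1 against 4097 for heavy over light, with 2490 at an unadjusted p under 0.05 where limma gave 0. Without light polysome replicate 2 heavy over light gave 6423. The causes were not tested. Depth limits POLD4, which had too few reads to be tested.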
